A study of Mus musculus with 9 samples.

Results

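Mitosis genes code for the kinases, cyclins, motors, condensins, checkpoint proteins and cytokinesis proteins that divide a cell. The 33 described here were Top2a, Mki67, Kif11, Aurka, Aurkb, Birc5, Bub1, Bub1b, Ccna2, Ccnb2, Cdc20, Cdk1, Cenpe, Cenpf, Plk1, Ttk, Kif20a, Kif23, Kif2c, Kif4, Nusap1, Tpx2, Prc1, Dlgap5, Ncapg, Ncapd2, Smc2, Smc4, Cdca8, Cdca3, Ect2, Anln and Incenp. They were taken from a list of names by function, and the list was drawn up with earlier results of these data known. All 33 were found among the 19937 genes that a probe set of the array names alone, and each gene was read from the brightest of its probe sets. For 32 of them there was 1 such probe set, and Top2a had another, which stayed between 3.23 and 3.999 log2 units on all 9 arrays.

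Affymetrix Mouse Gene 1.0 ST arrays were used to read RNA of sorted mouse CD4 T cells in 3 groups with 3 arrays each, to compare antigen-naive T cells with T helper 2 (Th2) cells at an early and a late stage of allergic airway inflammation. Naive cells (CD4+ CD62L+ CD44-) were sorted at day 29 from spleens of mice that had only sham treatment. Acute Th2 cells (CD4+ CD69+ ST2+) came from the lung at day 29, from mice given 10 µg ovalbumin with 1.5 mg alum into the peritoneum on days 1, 14 and 21 and then 1% ovalbumin aerosol on 3 days running. Chronic Th2 cells passed the same sort gate and came from the lung at day 104, after the same injections and 12 weeks of aerosol. Lungs were digested with enzymes, and the cells of every group were stimulated through CD3 and CD28 for 8 h after the sort, so every level was read after that stimulus. The sources used here do not state strain or age. The labels call the arrays of a group biological replicates and do not say whether each is a separate animal. A p-value here sets a difference against the spread between samples within the groups, which need not be the spread between animals. Tissue and cell state change together in both comparisons with naive cells and cannot be told apart. The same holds for stage and day in the comparison of chronic with acute Th2 cells. Day also differs between chronic Th2 and naive cells.

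A dividing cell copies its DNA, condenses the copies into chromosomes, pulls them apart on a spindle of microtubules and pinches into daughter cells. Cyclins bound to the kinase Cdk1 start the process, the kinases Plk1, Aurka and Aurkb carry it on, and the spindle checkpoint holds it until every chromosome is attached. Most of these genes are kept silent in resting cells by the DREAM complex and are switched on late in the cell cycle by the B-Myb and FoxM1 complexes. These complexes act through a promoter element called CHR, often together with CCAAT boxes bound by NF-Y. Naive T cells rest until they meet antigen, and T cells that have met it can divide many times.

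Promoters were set side by side because these elements are what late cell cycle genes are known to share, and the rule for the genes did not use sequence. The RefSeq promoter table (build GRCm38.p6, 250 bases before to 50 bases after a gene's start) held 26 of the 33 genes. Those not in it were Kif20a, Tpx2, Dlgap5, Aurkb, Incenp, Smc4 and Ccna2. The search covered both strands. CHR was read as the letters TTTGAA or as the variant TTCGAA. The CCAAT box was read by its own letters. An E2F site was read as the letters TTCCCGC in its first form, while the next form searched was TTGGCGC, another form that was searched was TTCGCGC, and the last form searched was TTGCCGC. E2F and CCAAT letters can share bases, as they do in the Ect2 promoter. The promoters printed here are those of the 4 genes with the largest difference between acute Th2 and naive cells among those in the table, with the central kinase Cdk1 and the cyclin Ccnb2 added after their values were seen. They are written 5′ to 3′ along the gene's strand, with CHR and CCAAT matches of either strand in capitals, so that a CCAAT on the other strand reads ATTGG. Their positions are chr11:99024140-99024439 (minus strand) for Top2a, chr7:135716330-135716629 (minus strand) for Mki67, chr19:37376132-37376431 (plus strand) for Kif11, chr2:119618048-119618347 (plus strand) for Nusap1, chr10:69352863-69353162 (minus strand) for Cdk1 and chr9:70421505-70421804 (minus strand) for Ccnb2.
Top2a: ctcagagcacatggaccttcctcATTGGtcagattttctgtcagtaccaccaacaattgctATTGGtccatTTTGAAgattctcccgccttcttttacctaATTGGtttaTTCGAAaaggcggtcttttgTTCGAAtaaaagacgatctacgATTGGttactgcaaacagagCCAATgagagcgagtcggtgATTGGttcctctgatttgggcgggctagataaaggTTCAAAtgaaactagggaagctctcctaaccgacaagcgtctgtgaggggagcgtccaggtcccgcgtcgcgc
Mki67: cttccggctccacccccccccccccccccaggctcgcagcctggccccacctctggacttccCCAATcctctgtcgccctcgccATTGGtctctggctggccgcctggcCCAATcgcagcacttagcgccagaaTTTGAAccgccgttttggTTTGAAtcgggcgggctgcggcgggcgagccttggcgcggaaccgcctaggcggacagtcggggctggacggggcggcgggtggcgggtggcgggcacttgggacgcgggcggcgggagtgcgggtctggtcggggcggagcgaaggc
Kif11: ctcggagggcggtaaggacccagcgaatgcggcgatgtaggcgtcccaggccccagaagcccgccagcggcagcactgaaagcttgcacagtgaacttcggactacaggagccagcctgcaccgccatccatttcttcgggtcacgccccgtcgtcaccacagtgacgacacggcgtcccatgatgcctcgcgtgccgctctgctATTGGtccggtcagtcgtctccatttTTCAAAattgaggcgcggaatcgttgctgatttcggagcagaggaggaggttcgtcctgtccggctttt
Nusap1: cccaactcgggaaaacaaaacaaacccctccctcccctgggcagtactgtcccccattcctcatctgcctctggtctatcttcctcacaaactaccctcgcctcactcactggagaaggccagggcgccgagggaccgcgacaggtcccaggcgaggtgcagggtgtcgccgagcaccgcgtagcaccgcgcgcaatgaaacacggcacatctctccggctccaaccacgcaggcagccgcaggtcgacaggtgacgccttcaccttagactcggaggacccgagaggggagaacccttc
Cdk1: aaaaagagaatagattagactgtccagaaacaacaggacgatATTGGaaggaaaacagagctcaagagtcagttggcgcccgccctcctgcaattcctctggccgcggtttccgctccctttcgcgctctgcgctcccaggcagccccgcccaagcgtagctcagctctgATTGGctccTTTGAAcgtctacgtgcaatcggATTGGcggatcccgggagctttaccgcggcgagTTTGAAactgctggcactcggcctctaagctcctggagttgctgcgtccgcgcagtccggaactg
Ccnb2: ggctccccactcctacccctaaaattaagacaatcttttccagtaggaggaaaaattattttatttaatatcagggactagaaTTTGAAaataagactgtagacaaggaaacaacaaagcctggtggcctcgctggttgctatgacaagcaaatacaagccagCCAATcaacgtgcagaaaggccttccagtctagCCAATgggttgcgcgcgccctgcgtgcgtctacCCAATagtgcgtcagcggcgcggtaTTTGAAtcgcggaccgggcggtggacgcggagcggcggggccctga

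Top2a held 4 CHR and 6 CCAAT matches in these 300 bases, Mki67 2 and 3, Cdk1 2 and 3, Ccnb2 2 and 3, and Kif11 1 and 1. The Nusap1 window held 0 of each. CHR letters were in promoters of 23 of the 26 genes (88.5%), against 19.2% of all 32851 promoters of the table. Each of the 26 genes counted once, if any of its starts matched, and 2 of them (Ect2 and Prc1) had more than 1 start. The share over the whole table counts every promoter. CCAAT was in 22 (84.6%, against 37.4%), and 21 held both (80.8%, against 7.53%). A CHR match within 50 bases of the start was found in 20 (76.9%, against 5.31%), and 14 held 2 or more CCAAT matches (53.8%, against 11.7%). E2F letters were in 5 (19.2%, against 9.57%), namely Cdk1, Mki67, Ncapg, Ncapd2 and Ect2. The promoters without a CHR match were those of Birc5, Cenpe and Nusap1. Genes that rose in acute Th2 cells and genes that did not pass that test held CHR in 13 of 15 and 10 of 11 promoters. CCAAT was in 13 of 15 and 9 of 11, and E2F in 5 of 15 and 0 of 11. These are matches of letters and were not tested as binding sites, and the difference between the gene sets was not tested.

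**Figure D1:**
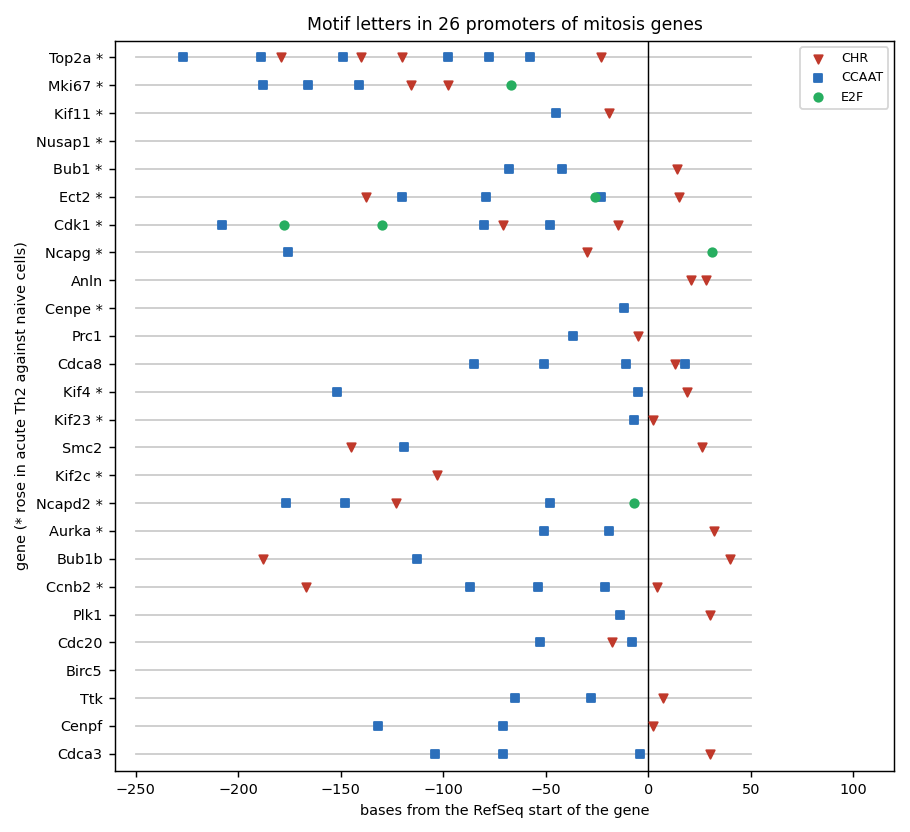
Each line is the promoter of 1 of 26 mitosis genes, ordered from the largest difference between acute Th2 and naive cells at the top, with bases from the RefSeq start on the x axis; triangles, squares and circles mark CHR, CCAAT and E2F letters on either strand. CHR marks appear on 23 of the 26 lines and 20 have one within 50 bases of the start, while asterisks mark the 15 genes that rose in acute Th2 cells.

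The arrays carried T cell RNA, and Th2 genes separated both Th2 groups from naive cells. Cd4 differed by 0.35 between acute Th2 and naive cells (limma, adjusted p = 0.689), Cd44 was higher by 1.93 (adjusted p = 0.000289), and Cd69 differed by -0.51 (adjusted p = 0.683). Between chronic Th2 and naive cells the differences were -0.19 for Cd4 (adjusted p = 0.698), 1.89 for Cd44 (adjusted p = 0.00033) and -1.09 for Cd69 (adjusted p = 0.158). The genes of CD62L and ST2 are not analysed here. Gata3, Il4, Il5, Il13 and Ccr8 rose in both Th2 groups against naive cells. None of them passed the test between chronic and acute Th2 cells (limma, smallest adjusted p = 0.343, for Il5). Across genes, naive 1 correlated at 0.939 and 0.941 with the other naive arrays, which correlated at 0.991 with each other. Chronic Th2 3 correlated at 0.981 and 0.985 with the other chronic arrays, which correlated at 0.990. The median over all genes lay between 6.43 and 6.56 on every array. Olfactory receptor genes, which serve as a measure of background chosen after the data were seen, had array medians of 4.94 to 5.21 in naive and acute Th2 cells, and of 5.67, 5.51 and 5.15 on chronic Th2 arrays 1, 2 and 3. The 95th percentile of their group means was 6.59, called the background level here. The T cell genes Cd3d, Cd3e, Cd3g, Cd4, Cd5 and Cd28 had means above this level in every group. The mean of Trat1, another T cell gene, was above it in naive and acute Th2 cells and just under it in chronic Th2 cells (6.58). Against naive cells, Cd5 was called lower in acute (-0.72, limma, adjusted p = 0.0359) and chronic Th2 cells (-1.15, adjusted p = 0.00374). Markers of other cells were also read, 39 of 43 listed. In every group, 0 of 4 natural killer, 0 of 4 dendritic, 0 of 4 neutrophil and 0 of 1 erythroid markers exceeded the background level, as against 1 of 5 B cell, 1 of 2 CD8 T cell, 2 of 7 macrophage, 1 of 6 lung epithelium and 3 of 6 endothelium and stroma markers.

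Mitosis genes were brighter in acute Th2 cells than in naive cells. Of the 33, 19 rose and 0 fell at an adjusted p under 0.05 (limma, Benjamini-Hochberg over 19937 genes), while 3.67% of all genes were called higher and 2.2% lower. The median difference was 0.72 on the log2 scale, against -0.03 over all genes and 0.01 over olfactory receptor genes. The difference was positive for 32 genes and negative for Smc4. All 3 acute arrays lay above all 3 naive arrays for 30 genes, against 8.8% of all genes, and below them for 0, against 10.9%. The genes that rose covered every role, from 1 of 4 in the chromosomal passenger complex to 6 of 6 on the spindle. These are bulk samples, so more dividing cells and more RNA per dividing cell cannot be told apart.

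Leaving out single arrays changed the number of these calls. It was 11 without acute Th2 2, 12 without naive 3, 12 without acute Th2 1, and between 14 and 21 without any other array. In all 9 such fits and under every other alternative in which they were fitted, 10 genes kept their call: Cdk1, Ccna2, Aurkb, Kif11, Nusap1, Dlgap5, Top2a, Mki67, Ncapg and Ncapd2. The calls of Ccnb2, Aurka, Kif2c and Kif4 were lost when arrays were centred on their olfactory receptor genes. The 14 genes that did not pass had differences from -0.48 (Smc4) to 1.02 (Anln). Of the 19 genes that rose, 16 had a naive mean under the background level, so the size of the difference is that of intensities, and 6 had both means under it.

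**Figure D2:**
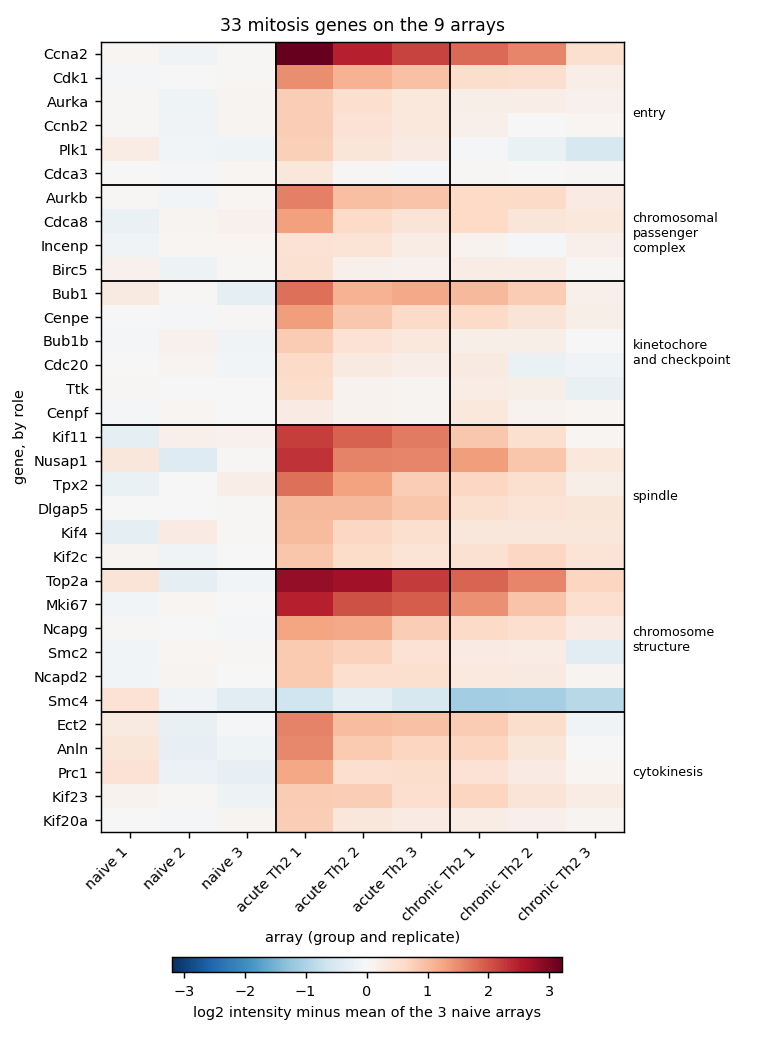
Rows are the 33 mitosis genes by role and columns the 9 arrays; colour is the log2 intensity minus the gene's mean over the 3 naive arrays, on a scale from blue (lower) to red (higher). The acute Th2 columns are the reddest, acute Th2 1 above all, chronic Th2 3 is the palest of the Th2 columns, and Smc4 is the bluest row in the chronic Th2 columns.

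Among the 6 genes of mitotic entry, 4 rose in acute Th2 cells: Ccna2, Cdk1, Aurka and Ccnb2. Ccna2, the cyclin that acts in S phase and at entry, had log2 intensities of 5.72, 5.54 and 5.69 on naive arrays 1, 2 and 3, of 8.90, 8.13 and 7.82 on the acute Th2 arrays and of 7.45, 7.20 and 6.15 on the chronic Th2 arrays. Every Th2 array lay above the naive ones, and chronic Th2 3 lay closest to them. The acute minus naive difference was 2.63 (SE 0.36, adjusted p = 0.00301), a 6.20-fold difference in intensity. Cdk1, the kinase that drives entry, had 6.44, 6.51 and 6.54 in naive cells, 7.97, 7.60 and 7.42 in acute Th2 cells and 7.06, 7.01 and 6.70 in chronic Th2 cells. The 3 groups did not overlap, and the acute Th2 arrays were the highest. Its difference was 1.17 (SE 0.15, adjusted p = 0.00226). Cdk1, Mki67 and Dlgap5 were added to the genes shown array by array after their values were seen.

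Aurka, a kinase of the spindle poles, rose by 0.56 (adjusted p = 0.0311), and the mitotic cyclin Ccnb2 by 0.53 (adjusted p = 0.0405). Each of these calls held in 2 of the 9 fits without 1 array, those without naive 1 and without acute Th2 3. Plk1, a kinase of entry and exit, did not pass the test. Its levels were 6.87, 6.55 and 6.50 in naive cells, 7.40, 7.03 and 6.90 in acute Th2 cells and 6.59, 6.42 and 6.12 in chronic Th2 cells. The acute arrays were above the naive ones by a mean of 0.47 (adjusted p = 0.197), and the chronic arrays reached below them. Cdca3, part of a ubiquitin ligase that lets entry begin, had 6.16, 6.11 and 6.25 in naive cells, 6.52, 6.20 and 6.13 in acute Th2 cells, and 6.20, 6.19 and 6.20 in chronic Th2 cells. Its groups overlapped, every value lay under the background level, and the difference was 0.11 (adjusted p = 0.738, 95% interval -0.14 to 0.36).

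Of the 4 chromosomal passenger genes, whose products correct wrong attachments of chromosomes, 1 rose. Aurkb, the kinase of the complex, had 6.44, 6.33 and 6.46 in naive cells, 8.02, 7.36 and 7.32 in acute Th2 cells and 7.04, 7.03 and 6.67 in chronic Th2 cells. Its groups did not overlap, and the acute difference was 1.16 (SE 0.19, adjusted p = 0.00798). Birc5 (survivin), which takes the complex to the centromere, had 6.20, 5.92 and 6.10 in naive cells, 6.57, 6.23 and 6.20 in acute Th2 cells and 6.31, 6.30 and 6.10 in chronic Th2 cells. All its values lay under the background level and its groups overlapped, with a difference of 0.26 (adjusted p = 0.373, 95% interval -0.03 to 0.55). Cdca8 (borealin) differed by 0.78 (adjusted p = 0.0960) and Incenp, the scaffold, by 0.38 (adjusted p = 0.0603).

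Of 6 kinetochore and checkpoint genes, 2 rose. Bub1, a checkpoint kinase, had 5.18, 4.94 and 4.58 in naive cells, 6.66, 6.02 and 6.11 in acute Th2 cells and 5.95, 5.72 and 5.07 in chronic Th2 cells. Its acute arrays were all above the naive ones, while chronic Th2 3 lay within the naive range. The difference was 1.36 (SE 0.26, adjusted p = 0.0183), a call that was lost without naive 3, acute Th2 1 or acute Th2 3. Cenpe, a kinetochore motor, rose by 0.93 (adjusted p = 0.0186), and this call was lost without naive 2 or acute Th2 2. Bub1b (BubR1) differed by 0.54 (adjusted p = 0.0526), and Ttk (Mps1) by 0.25 (adjusted p = 0.537). Cdc20, which activates the anaphase-promoting complex once the checkpoint is met, had 6.73, 6.82 and 6.63 in naive cells, 7.35, 7.02 and 6.93 in acute Th2 cells and 7.02, 6.51 and 6.61 in chronic Th2 cells. Its acute arrays were above the naive ones, and its chronic arrays reached from below the naive range to above acute Th2 2 and 3, with an acute difference of 0.37 (adjusted p = 0.282). Cenpf, which joins the kinetochore late in the cycle, had 5.13, 5.24 and 5.19 in naive cells, 5.45, 5.29 and 5.27 in acute Th2 cells and 5.53, 5.30 and 5.24 in chronic Th2 cells. The acute arrays lay just above the naive ones, all values were under the background level, and the difference was 0.15 (adjusted p = 0.548).

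All 6 spindle genes rose in acute Th2 cells, with a median difference of 1.14. Kif11 (Eg5), the kinesin that pushes the spindle poles apart, had 5.13, 5.60 and 5.56 in naive cells, 7.63, 7.31 and 7.09 in acute Th2 cells and 6.30, 5.94 and 5.49 in chronic Th2 cells. The acute arrays stood clear of all others, and chronic Th2 3 fell within the naive range. The acute difference was 1.91 (SE 0.23, adjusted p = 0.00149), a 3.77-fold difference in intensity. Nusap1, which bundles microtubules near chromosomes, rose by 1.82 (adjusted p = 0.00985), and Tpx2, which activates Aurka on the spindle, by 1.28 (adjusted p = 0.0156). The Tpx2 call was lost without acute Th2 2.

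Dlgap5 (HURP), which steadies the microtubules that hold chromosomes, had 5.57, 5.59 and 5.62 in naive cells, 6.63, 6.63 and 6.49 in acute Th2 cells and 6.11, 6.03 and 5.98 in chronic Th2 cells. The groups did not overlap and spread little, with SDs of 0.03, 0.08 and 0.06 (n = 3 each). Its difference of 0.99 had the smallest adjusted p of the 33 genes (0.000114). Kif4, a chromosome-bound kinesin, rose by 0.72 (adjusted p = 0.0355), a call held in 2 of 9 fits without 1 array, those without naive 1 and naive 2. Kif2c (MCAK), which takes microtubules apart at the centromere, had 5.17, 4.97 and 5.10 in naive cells, 5.97, 5.68 and 5.51 in acute Th2 cells and 5.57, 5.75 and 5.51 in chronic Th2 cells. Both Th2 groups lay above the naive arrays and overlapped each other, all under the background level. The acute difference was 0.64 (SE 0.13, adjusted p = 0.0225), and this call was lost without naive 2, naive 3, acute Th2 1 or acute Th2 2.

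**Figure D3:**
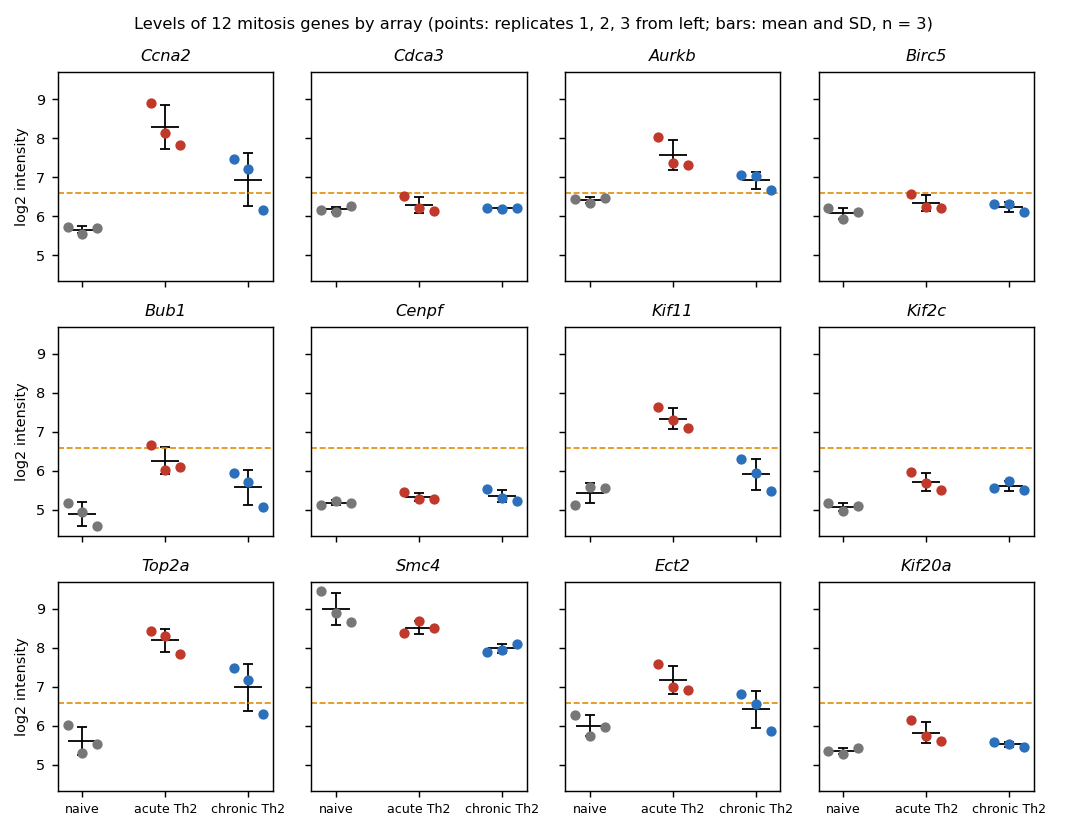
Points are log2 intensities of 12 mitosis genes on single arrays (replicates 1, 2 and 3 from left to right in each group), bars are the group mean and SD (n = 3) and the dashed line is the background level of 6.59. Each role is shown by its genes with the largest and smallest difference between acute Th2 and naive cells, from Ccna2 (2.63) and Cdca3 (0.11) at the upper left to Ect2 (1.17) and Kif20a (0.47) at the lower right.

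Of 6 genes of chromosome structure, 4 rose. Top2a, the topoisomerase that untangles sister chromatids, had 6.02, 5.30 and 5.52 in naive cells, 8.42, 8.30 and 7.85 in acute Th2 cells and 7.47, 7.18 and 6.30 in chronic Th2 cells. No chronic array reached the acute ones, and chronic Th2 3 was close to naive 1. The acute difference was 2.58 (SE 0.31, adjusted p = 0.00163), a 5.96-fold difference in intensity, and it was 1.24 when its dim probe set was averaged in, still with a call. Mki67, the Ki-67 protein that coats mitotic chromosomes and marks dividing cells, had 6.14, 6.30 and 6.25 in naive cells, 8.72, 8.28 and 8.16 in acute Th2 cells and 7.69, 7.15 and 6.77 in chronic Th2 cells. Its groups were ordered without overlap, and the acute difference was 2.15 (SE 0.23, adjusted p = 0.000720).

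Condensin, which packs chromosomes, has the core pair Smc2 and Smc4, and Ncapg and Ncapd2 belong to its form I. Ncapg rose by 1.08 (adjusted p = 0.00258) and Ncapd2 by 0.63 (adjusted p = 0.0140), while Smc2 differed by 0.68 (adjusted p = 0.0640). Smc4 had 9.45, 8.90 and 8.66 in naive cells, 8.37, 8.69 and 8.50 in acute Th2 cells and 7.89, 7.94 and 8.11 in chronic Th2 cells. It was above the background level on all arrays, and its acute and naive values overlapped. The acute difference was -0.48 (SE 0.19, adjusted p = 0.242), the only negative one among the 33 genes.

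Of 5 cytokinesis genes, 2 rose. Ect2, which activates the GTPase RhoA at the cleavage furrow, had 6.28, 5.75 and 5.96 in naive cells, 7.58, 6.99 and 6.93 in acute Th2 cells and 6.82, 6.56 and 5.88 in chronic Th2 cells. The acute arrays were above all naive arrays, and chronic Th2 3 lay within the naive range. The difference was 1.17 (SE 0.27, adjusted p = 0.0388), and the call held in 3 of 9 fits without 1 array: those without naive 1, chronic Th2 1 or chronic Th2 3. Kif23 (MKLP1), a motor of the central spindle, rose by 0.72 (adjusted p = 0.0183), a call lost without naive 3, acute Th2 1 or acute Th2 2. Anln (anillin) differed by 1.02 (adjusted p = 0.0681), and Prc1, which crosslinks the central spindle, by 0.78 (adjusted p = 0.131). Kif20a (MKLP2), which moves the passenger complex to the midzone, had 5.35, 5.29 and 5.44 in naive cells, 6.14, 5.73 and 5.62 in acute Th2 cells and 5.59, 5.53 and 5.45 in chronic Th2 cells. The acute arrays were the highest without overlap, all values lay under the background level, and the difference was 0.47 (adjusted p = 0.0906).

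Chronic Th2 cells differed from naive cells in 5 mitosis genes. Of the 33, 4 rose (limma, adjusted p under 0.05), against 3.68% of all genes called higher, and 1 fell, against 4.2% called lower. The arrays of the groups did not overlap for 15 genes higher in chronic Th2 cells, against 15.6% of all genes, and for 1 gene lower, against 12.3%. Of the 1015 olfactory receptor genes, 343 were higher without overlap and 2 lower, so the background also rose on the chronic arrays. The median difference was 0.37, against 0.04 over all genes and 0.34 over olfactory receptor genes, and it was -0.04 after each array was centred on its olfactory receptor genes. That centring moved the median of all genes from 0.04 to -0.37, and with it the genes called from 734 higher and 837 lower to 314 higher and 3285 lower. Among markers of other cells, Sftpa1 of lung epithelium rose by 0.54 in chronic Th2 cells. Cd79a of B cells fell, with both means under the background level, while the other 4 B cell markers had positive differences and were not called. The part of these markers in the results was not tested.

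The genes that rose were Top2a (1.37, SE 0.31, adjusted p = 0.0328), Mki67 (0.97, SE 0.23, adjusted p = 0.0363), Kif2c (0.53, SE 0.13, adjusted p = 0.0432) and Dlgap5 (0.44, SE 0.08, adjusted p = 0.0102). The Dlgap5 call held in all 9 fits without 1 array and was lost after olfactory centring. The Top2a call held in 2 of the 9 fits (without naive 1 or chronic Th2 3), and the Mki67 call in 3 (without naive 1, acute Th2 1 or chronic Th2 3). The Kif2c call held in 3 (without naive 1, acute Th2 1 or acute Th2 3) and was lost after olfactory centring, where the difference was 0.12. The number that rose went from 4 to 1 without naive 2, naive 3, acute Th2 2, chronic Th2 1 or chronic Th2 2, to 2 without acute Th2 3 and to 7 without chronic Th2 3. With the dim probe set averaged in, Top2a differed by 0.51 and was not called.

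Smc4 fell by 1.02 in chronic Th2 cells (SE 0.19, adjusted p = 0.0141, 95% interval -1.45 to -0.59), and its 3 chronic arrays lay below all other arrays. The call was lost without chronic Th2 1 or chronic Th2 2. Genes with large differences that missed the threshold were Ccna2 (1.28, adjusted p = 0.0662), Nusap1 (0.85, adjusted p = 0.133) and Bub1 (0.68, adjusted p = 0.153). Kif11 differed by 0.48 (adjusted p = 0.225), Cdk1 by 0.43 (adjusted p = 0.124) and Aurkb by 0.50 (adjusted p = 0.143). Over the 28 genes that did not pass, the differences ran from -0.27 (Plk1, adjusted p = 0.348) to 1.28 (Ccna2). After olfactory centring Plk1 was called lower at -0.67, Smc4 at -1.43, and Top2a was still called higher at 0.96. Mki67 kept its call too, and Ccna2 was now called higher at 0.88. Cdc20 had the difference closest to 0, at -0.01 (95% interval -0.37 to 0.35).

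Chronic and acute Th2 cells were compared directly, which is also the test of whether their differences from naive cells, which share the naive arrays, are unequal. No mitosis gene passed limma's test: 0 were higher and 0 lower, against 0.015% of all genes higher and 0.015% lower. At an unadjusted p under 0.05 there were 23, all lower in chronic Th2 cells, against 14.9% of all genes in either direction and 4.8% lower. When arrays were weighted by their quality 17 were called lower, against 13.8% of all genes. The difference was negative for 32 genes and positive for Cenpf alone (0.02, 95% interval -0.21 to 0.25). The median was -0.53, against 0.04 over all genes and 0.33 over olfactory receptor genes. All 3 chronic arrays lay below all 3 acute arrays for 24 genes, against 10.8% of all genes, and above them for 0, against 11.8%.

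The difference of Kif11 between the stages was -1.43 (SE 0.23, adjusted p = 0.226, 95% interval -1.95 to -0.92), with a chronic mean under the background level, so it is a difference of intensities. The same holds for the chronic means of Dlgap5, Plk1, Kif2c, Birc5 and Cdca3. Genes with both means above that level were Ccna2 at -1.35 (adjusted p = 0.322), Top2a at -1.21 (adjusted p = 0.322) and Mki67 at -1.18 (adjusted p = 0.301), among others. The smallest adjusted p was that of Dlgap5 (0.128), with a difference of -0.55 (95% interval -0.72 to -0.37). Plk1 differed by -0.74 (adjusted p = 0.322) and Smc4 by -0.54 (adjusted p = 0.322). Kif2c, at -0.11 (95% interval -0.41 to 0.18), Birc5, at -0.09, and Cdca3, at -0.09, had among the smallest differences. Centring on olfactory receptor genes gave 14 genes called lower, against 0.221% of all genes, and a median of -0.91, while it moved the median of all genes from 0.04 to -0.33. Leaving out acute Th2 1 with chronic Th2 3 gave 0 and -0.23.

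**Figure D4:**
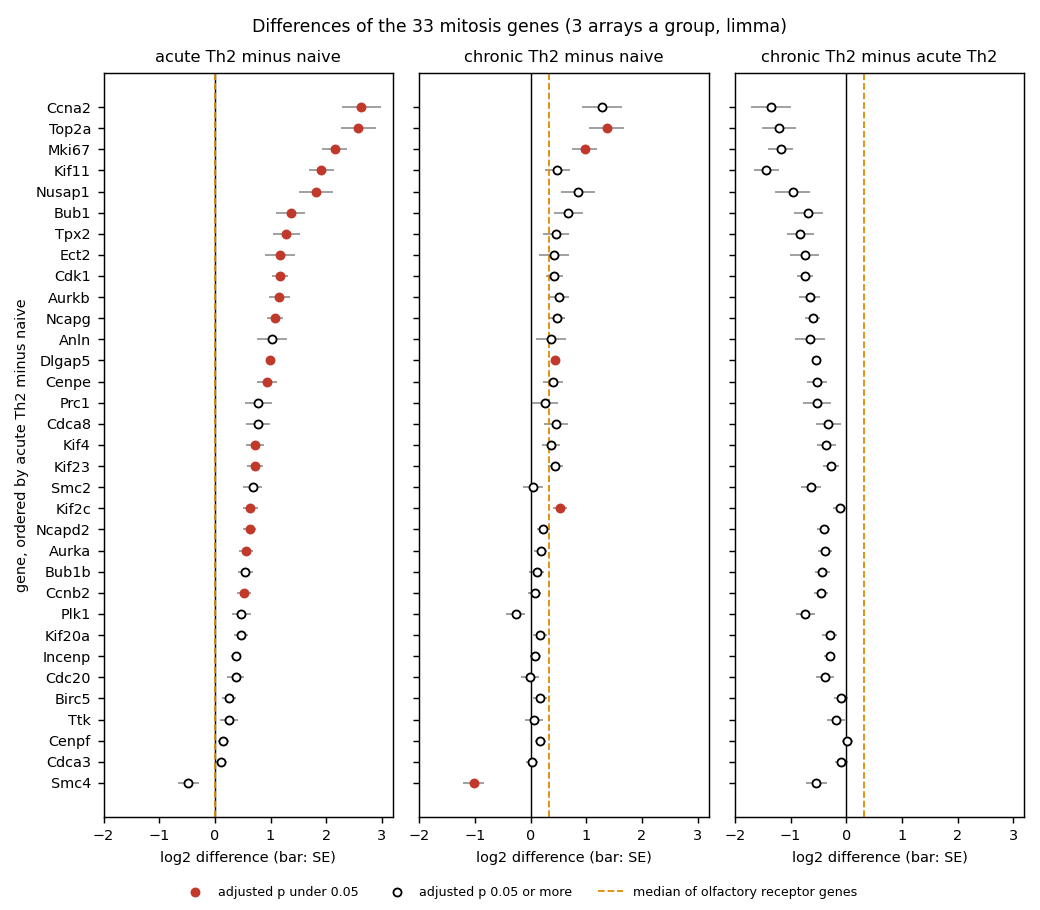
Each row is a mitosis gene and each panel a comparison; points are log2 differences with their SE (3 arrays a group), filled where the adjusted p was under 0.05, and the dashed line is the median of olfactory receptor genes in that comparison. Points lie right of 0 for 32 genes in acute Th2 minus naive (19 filled) and left of 0 for 32 genes in chronic minus acute Th2 (0 filled), while in chronic Th2 minus naive many lie near the dashed line at 0.34, and their median was -0.04 after olfactory centring.

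Within a group the same array tended to be high, or low, for most mitosis genes. The median over the 33 genes was 6.02, 5.75 and 5.69 on the naive arrays, 7.21, 6.74 and 6.59 on the acute Th2 arrays and 6.36, 6.19 and 6.09 on the chronic Th2 arrays. The group means of these medians were 5.82 ± 0.17, 6.85 ± 0.32 and 6.21 ± 0.14 (SD, n = 3 each) for naive, acute Th2 and chronic Th2 cells. The arrays of the 3 groups did not overlap. Medians of the olfactory receptor genes had group means of 5.03 ± 0.09, 5.06 ± 0.13 and 5.44 ± 0.26 in the same order. The part of this background rise in the level of mitosis genes in chronic Th2 cells was not tested. The acute group had the highest mean for 31 of the 33 genes, and the chronic mean lay between both other means for 29. The median SD over the genes was 0.10 in naive, 0.26 in acute Th2 and 0.20 in chronic Th2 cells.

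Acute Th2 1 was the highest of all 9 arrays for 31 genes and the highest of the acute arrays for 32, whereas it was the highest acute array for 50.2% of all genes. Acute Th2 3 was the lowest acute array for 30 mitosis genes, against 23.4% of all genes. Chronic Th2 1 was the highest chronic array for 29 (37.7% of all genes) and chronic Th2 3 the lowest for 28 (39.9% of all genes). Chronic Th2 3 was also the lowest of the 6 Th2 arrays for 27 genes. It lay above the naive range for 16 genes, within it for 12 and below it for 5, while chronic Th2 1 was above that range for 29 and chronic Th2 2 for 25. The olfactory receptor median was highest on the same acute and chronic arrays as the mitosis median, acute Th2 1 (5.21) and chronic Th2 1 (5.67), and its part in the order of arrays was not tested.

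**Figure D5:**
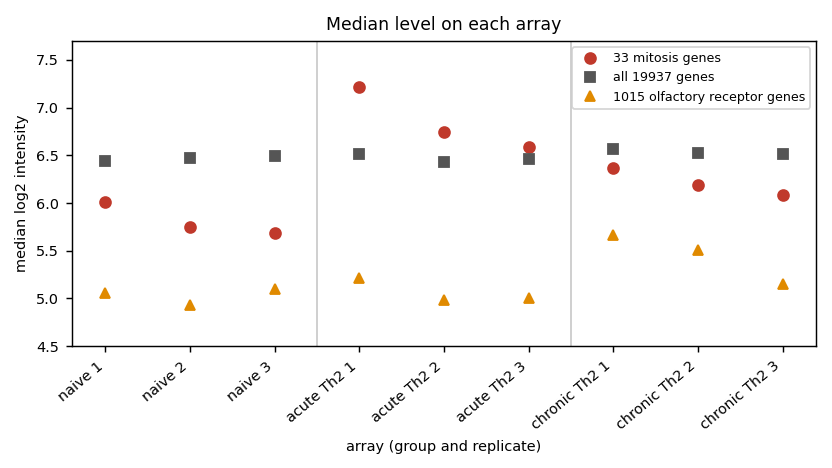
Points are median log2 intensities on each of the 9 arrays, for the 33 mitosis genes (circles), all 19937 genes (squares) and 1015 olfactory receptor genes (triangles). The circles run from 6.59 to 7.21 on acute Th2 arrays and from 6.09 to 6.36 on chronic Th2 arrays, the squares stay between 6.43 and 6.56, and the triangles are highest on chronic Th2 1 and 2.

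Genes around mitosis were read from 9 further lists with 205 measured genes. In acute Th2 cells 34 of them rose and 1 fell against naive cells, in chronic Th2 cells 9 rose and 4 fell, and between the Th2 groups 0 passed the test (limma). As shares, 16.6% rose and 0.488% fell in acute Th2 cells, against 3.67% and 2.2% of all genes. In chronic Th2 cells 4.39% rose and 1.95% fell, against 3.68% and 4.2% of all genes, so the share that rose was near that of all genes. Between the Th2 groups 55 (26.8%) had an unadjusted p under 0.05, against 14.9% of all genes. Of 34 other kinetochore and checkpoint genes, 9 rose in acute Th2 cells, led by Knl1 (1.41, adjusted p = 0.0158), Zwilch (1.14, adjusted p = 0.0130) and Ska3 (1.11, adjusted p = 0.00318), and 0 passed in chronic Th2 cells. Of 31 other spindle and centrosome genes, 5 rose, among them Racgap1 (1.20), the partner of Kif23 in the central spindle, Stil (1.08) and Kif18b (0.97). Of 31 other entry and exit genes, 3 rose: Vrk1 (0.84), Cdc27 (0.64) and Mastl (0.61). Cdc27, a subunit of the anaphase-promoting complex, also rose in chronic Th2 cells (0.36, adjusted p = 0.0497).

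A further list of 20 genes held other condensin and cohesin genes together with Hmgb2, Top2b, Tmpo and Lmnb1. Of these 20, 4 rose in acute Th2 cells. Among them were the condensin I subunit Ncaph (1.40, limma, adjusted p = 0.00260), the condensin II subunit Ncapg2 (1.03) and Hmgb2 (0.96). Ncaph also rose in chronic Th2 cells (0.89, adjusted p = 0.0237), where Smc4 fell. The median of this list was -0.06 in acute and -0.30 in chronic Th2 cells against naive cells. Of 37 DNA replication genes, 4 rose in acute Th2 cells: Rrm2 (1.45) and Tyms (1.11), which make nucleotides, Dtl (1.24) and Cdc45. In chronic Th2 cells Dtl (0.78) and Tyms (0.67) rose and Orc6, of the origin recognition complex, fell by 0.41. Of 5 histone genes, 4 rose in acute Th2 cells: H2bc3 (2.48), H1f5 (1.47), H2ac4 (1.27) and the variant H2az1. H2bc3 and H2ac4 have near-identical copies, so their values are uncertain. H2az1 was the histone gene that rose in chronic Th2 cells (0.65, adjusted p = 0.0341).

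In a list of 12 genes that held G1 cyclins and CDKs together with Myc and Mycn, Cdk6 and Ccne2 (0.74) rose in acute Th2 cells. Cdk6, which acts before DNA copying, rose by 2.35 in acute (adjusted p = 0.00927) and 2.32 in chronic Th2 cells (adjusted p = 0.00964), and Cdk2 fell by 0.56 in chronic Th2 cells. The pocket protein Rbl2 (p130), part of the complex that keeps cell cycle genes off, rose by 2.04 (adjusted p = 0.00819) and 1.89 (adjusted p = 0.0115). Cdkn2c, an inhibitor of Cdk4 and Cdk6, rose by 0.99 (adjusted p = 0.00520) and 0.98 (adjusted p = 0.00526), and the antiproliferative gene Btg2 fell by 1.45 (adjusted p = 0.0141) and fell by 1.43 (adjusted p = 0.0142). These 3 genes came from a list of 15 that held CDK inhibitors and pocket proteins together with Btg1, Btg2, Tob1, Klf2, Ccng1 and Ccng2. Rbl2, Cdkn2c and Btg2 were the 3 genes of that list called in acute Th2 cells, and Rb1 also rose in chronic Th2 cells. Cdk6 had 7.50, 9.31 and 8.78 in naive cells, 10.58, 11.03 and 11.03 in acute Th2 cells and 10.70, 11.08 and 10.76 in chronic Th2 cells, so the Th2 groups overlapped and both lay above the naive arrays, of which naive 1 was lowest. Of 20 E2F, MuvB, B-Myb, FoxM1 and NF-Y regulators, E2f8 rose in acute Th2 cells (1.05, limma, adjusted p = 0.0216). Lin9, a MuvB subunit, fell by 0.92 in chronic Th2 cells (limma, adjusted p = 0.0107). For Ska3, Stil, Mastl, Ncapg2, H2ac4, Ccne2, Cdkn2c and Lin9, both means of the called differences lay under the background level. Other genes of these lists, among them Knl1, Rrm2 and Dtl, had a naive mean under it. The sizes of all these differences are therefore those of intensities. The lists' changes were not tested as sets.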

How the data were processed

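RNA of 9 sorted CD4 T cell samples was read on 9 arrays. The deposited values were log2 intensities per probe set, normalised by the authors with RMA, which together with limma is named in the submitters' processing notes. The sources used here do not state build, annotation or filters. No further normalisation was applied. Of 34760 probe sets, 21640 named 1 gene by the platform annotation, 1321 several and 11799 none. The brightest single-gene probe set stood for each of 19937 genes. One limma fit (version 3.58.1, R 4.3.3) over all arrays, with group as the only term, gave the 3 comparisons, and p-values were adjusted by Benjamini-Hochberg over all genes with a threshold of 0.05. The scripts were tested on simulated data. Values array by array are given for the genes with the largest and smallest acute difference of each role and for the 3 lowest against naive cells in a Th2 group (Smc4, Plk1 and Cdc20), with Mki67, Cdk1 and Dlgap5 added after their values were seen. Named pathway genes are up to 3 called genes with the largest difference per list and comparison (up to 2 as values where none was called), and a few further called genes complete small counts. Sort targets are always named. The members and lists were chosen with earlier results of these data known. Array number limits the precision: there are 3 arrays a group. Alternatives covered the arrays fitted, a replicate block, array weights, normalisation, probe sets, dim genes, a trended prior and arrays left out. Of the 20 alternatives, 3 were added after the data were seen: olfactory centring and 2 pairs of arrays left out. The table had 0 unused sample columns.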

Additional observations from a re-analysis of the deposited data

How the results depend on the processing

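The 19 mitosis genes higher in acute Th2 than in naive cells numbered 11 to 21 when single arrays were left out and 14 to 24 under the other alternatives, with 0 lower in each; the filter on dim genes kept 18 of the 33 genes. For chronic Th2 against naive cells, the 4 genes higher became 1 with only the 6 arrays compared, 9 with the replicate block, 11 with array weights, 1 with quantile normalisation, 10 without naive 1 and chronic Th2 3, 11 without acute Th2 1 and chronic Th2 3, and 1 to 7 when single arrays were left out. The 1 gene lower became 0 with only the 6 arrays compared, 2 with olfactory centring, and 0 to 1 when single arrays were left out. The median of 0.37 turned to -0.038 with olfactory centring. For chronic against acute Th2 cells, the 0 genes lower became 17 with array weights, 1 with quantile normalisation, 14 with olfactory centring and 5 without naive 1 and chronic Th2 3, and stayed 0 without any single array. The median of -0.53 became -0.91 with olfactory centring and -0.23 without acute Th2 1 and chronic Th2 3. The cause of these changes was not tested. Over all genes, array weights gave 3973 higher and 2748 lower between the Th2 groups, where the fit as reported gave 3 and 3, and weights ran from 0.165 (naive 1) to 8.23 (acute Th2 3). Without naive 1, the acute comparison gave 1206 higher and 1218 lower, against 732 and 439. Replicate number was not a term of the fit as reported. Deviations of same-numbered arrays correlated from -0.0855 (naive 3 with acute Th2 3) to 0.572 (acute Th2 1 with chronic Th2 1), and not every pair exceeded 0.1. Acute Th2 3 and chronic Th2 3 correlated at 0.403. Whether the numbers pair the samples was not tested. With the replicate block 23 genes were higher in acute Th2 cells. Of 1935 differences of the 33 mitosis genes under alternatives, 89 lost a call, 98 gained one and 0 called values changed sign. Signal over background limits 15 genes whose 3 group means lay under the background level.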
